A study of Mus musculus with 20 samples.

Results

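Collagen genes were followed in the translatome of mouse epididymal adipose tissue (epiAT), as every protein-coding gene whose symbol is Col, a type number, a and a chain number. This rule gave 44 genes of the 46078 in the count table, 11 of them fibrillar, 8 of the basement membrane and 25 of other kinds, and 40 of the 44 passed the filter on low counts. Col2a1, Col9a1, Col9a2 and Col24a1, with 152, 87, 14 and 44 counts over all libraries, did not pass and have no test.

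The data are TRAP–seq libraries, in which mRNA bound to tagged ribosomes of one cell type is pulled down and sequenced. All mice were AdipoERCre x NuTRAP on the labelled C576BL6 background and received tamoxifen 2 times at 4 to 5 weeks of age, so that a Cre under the adipocyte gene Adipoq switched on a GFP-tagged ribosomal protein. In the short arm, mice had 12 weeks of high-fat diet (H) or chow (C) and were 18 weeks old, or had 8 further weeks of chow for weight loss (WL) after HFD (HC) or after chow (CC_s) and were 26 weeks old. Each of these groups held 3 mice. Per the paper, chow in the first diet period was a low-fat chow, and chow in the WL period was a standard chow. Mice of the long arm had 25 weeks of the first diet (HH and its control CC_l, 31 weeks old), with 8 further weeks of chow in HHC and its control CCC (39 weeks old), and each group held 2 mice.

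Collagens are proteins of the extracellular matrix in which 3 chains wind into a triple helix. Types I, III and V form the banded fibrils of connective tissue. Type IV forms the sheet of the basement membrane that surrounds each adipocyte and each vessel, and types XV and XVIII lie next to that sheet. Type VI builds beaded filaments between cells and fibrils and is abundant in adipose tissue, FACIT collagens such as XII and XIV sit on the surface of fibrils, and type VIII forms short-chain networks around vessels. Adipocytes translate several of these chains, and fibroblasts, mural cells and endothelial cells make them too.

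Counts on genes totalled 10710277 to 36738954 per library, and 3 counts, the most that a count of 0 allows for, came to between 0.0815 and 0.251 CPM (counts per 1000000 counts of the TMM-scaled library). Such limits cover counting error only. Adipocyte markers were above 0 in every library, and their summed level ran from 10747 CPM in CCC replicate 2 to 121319 CPM in C replicate 3. Nuclear-retained RNA (Malat1, Neat1, Meg3 and Kcnq1ot1) summed to 30219 and 37596 CPM in C replicates 1 and 2, 28095 CPM in CCC replicate 2 and 20395 CPM in HC replicate 3, and to between 2787 and 12402 CPM in the other 16 libraries. CC_l replicate 1 held 3114 CPM of spermatid genes. Class sums, chain ratios and chow levels are also given without the 4 libraries named for nuclear-retained RNA, where C and CCC then hold 1 mouse each. So are counts of called genes of other lists and some counts of called collagens, but not that of collagens called in H. For comparisons with C or CCC, the other lists are then given by their medians. In bulk libraries, a change in the number of cells that make a chain and a change in the chain per cell cannot be told apart.

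In chow libraries, the collagens with the highest level per kilobase of exon were chains of types IV, III, I, XV and V. Col4a1 had a median of 24.9 CPM per kb over the 10 chow libraries (14.9 to 51.9), Col3a1 20.5 (8.75 to 75.3), Col4a2 17.6 (12.0 to 43.4) and Col1a2 15.7 (7.51 to 39.8). Col15a1, a proteoglycan collagen of the basement membrane zone, stood at 14.0 CPM per kb (8.43 to 27.7), Col5a3, a type V chain, at 13.5 (6.62 to 27.3), Col1a1 at 8.73 (5.08 to 41.6) and Col6a1 at 8.67 (4.84 to 24.5). The ranges of neighbours in this order overlapped. With the length of the longest transcript in place of all exons, Col1a2 (36.4), Col3a1 (36.1) and Col4a1 (28.0) came first, so the order within these leading chains depends on the length chosen. It also depended on the libraries. Col3a1 was above Col4a1 per kb of exon in both CCC mice (56.5 and 75.3 against 18.9 and 51.9) and below it in all 3 CC_s mice (8.75, 14.1 and 14.5 against 32.9, 25.8 and 23.9). Over the 7 chow libraries left without those richest in nuclear-retained RNA, Col4a1 (22.8), Col4a2 (15.7), Col15a1 (14.2) and Col3a1 (14.1) came first.

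The promoters of 4 of these genes are shown because they head the order of levels just given. They are RefSeq windows of mm10 (GRCm38.p6), from 250 bases before to 50 after the start, 5′ to 3′ on the strand of the gene. Col1a2 lies at chr6:4505368-4505667 on the plus strand and Col3a1 at chr1:45311288-45311587 on the plus strand. Capitals mark the letters CCAAT on either strand in Col1a2, at positions -109 and 0 from the start. In Col3a1 they mark the letters TATAAA, at position -117.
Col1a2: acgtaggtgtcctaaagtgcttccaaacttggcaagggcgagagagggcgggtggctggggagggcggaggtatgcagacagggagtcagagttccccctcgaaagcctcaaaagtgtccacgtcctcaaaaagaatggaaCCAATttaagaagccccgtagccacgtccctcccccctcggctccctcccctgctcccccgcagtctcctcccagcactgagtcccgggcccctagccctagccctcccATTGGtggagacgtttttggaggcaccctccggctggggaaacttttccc
Col3a1: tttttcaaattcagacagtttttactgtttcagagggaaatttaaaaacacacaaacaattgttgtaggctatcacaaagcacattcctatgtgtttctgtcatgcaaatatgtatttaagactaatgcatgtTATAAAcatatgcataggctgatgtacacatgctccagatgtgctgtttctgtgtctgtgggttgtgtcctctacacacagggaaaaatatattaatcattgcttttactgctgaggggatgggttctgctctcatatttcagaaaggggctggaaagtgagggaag
Col4a1 (chr8:11312777-11313076, minus strand) and Col4a2 (chr8:11312555-11312854, plus strand) start 21 bases apart and are read in opposite directions. In both windows, capitals mark the 78 bases that the windows share, each read on its own strand.
Col4a1: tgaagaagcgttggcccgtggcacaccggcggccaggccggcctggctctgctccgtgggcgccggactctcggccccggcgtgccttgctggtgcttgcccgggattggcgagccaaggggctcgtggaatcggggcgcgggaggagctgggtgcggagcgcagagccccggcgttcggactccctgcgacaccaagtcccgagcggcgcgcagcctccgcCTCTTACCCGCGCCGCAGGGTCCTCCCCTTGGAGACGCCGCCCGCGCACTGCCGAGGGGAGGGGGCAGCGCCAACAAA
Col4a2: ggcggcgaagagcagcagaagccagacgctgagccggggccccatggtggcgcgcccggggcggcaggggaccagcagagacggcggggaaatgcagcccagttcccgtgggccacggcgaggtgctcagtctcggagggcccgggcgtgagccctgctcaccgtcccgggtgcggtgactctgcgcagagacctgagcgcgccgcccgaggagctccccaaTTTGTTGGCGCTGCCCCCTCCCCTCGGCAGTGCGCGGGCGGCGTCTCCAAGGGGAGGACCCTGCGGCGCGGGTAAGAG
A CCAAT box, a TATA box and a GC box were looked for on both strands in the 38 windows found for 35 of the 44 collagen genes. CCAAT was in 13 of the 38 (34.2%) and in 37.4% of all 32851 RefSeq windows. TATAAA was in 5 (13.2%, against 13.6% of all windows), and the GC box GGGCGG in 23 (60.5%, against 35.7%). Both type IV windows and that of Col1a2 held the CCAAT box as well as the GC box, and that of Col3a1 held neither. These matches are descriptions of the letters and not sites. Col1a1, Col2a1, Col4a3, Col5a2, Col9a3, Col12a1, Col14a1, Col22a1 and Col26a1 had no entry.

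The first comparison asks how collagen translation differs after 12 weeks of HFD. Of 40 collagens tested, 12 were called higher in H than in C (p under 0.01 before adjustment in edgeR's quasi-likelihood test, with a log2 fold change of 1 or more in size) and none lower, where 3.57% of all 21464 genes tested were called higher and 2.92% lower. They were the fibrillar chains Col1a1, Col1a2, Col3a1, Col5a1 and Col5a2, both chains of the common type IV molecule, all 3 chains of the common type VI molecule, Col8a1 and Col12a1. At an adjusted p under 0.05, 6 remained: Col6a2, Col6a1, Col3a1, Col1a1, Col4a1 and Col4a2. The median log2 fold change was 1.23 over the 9 fibrillar collagens tested, 0.13 over the 8 of the basement membrane, -0.18 over the 23 others and -0.15 over all genes. The low median of the others depended on the libraries. Without the 4 with the most nuclear-retained RNA, which leaves 1 mouse in C, medians over subgroups of the others were between 0.97 and 2.82. They were 2.82 for type VI and 1.77 for FACIT chains.

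Type III collagen, which forms thin fibrils together with type I, showed the widest range. Col3a1 read 263, 260.2 and 136 CPM in C and 864, 3047 and 376 CPM in H. Every H mouse was above every C mouse, and H replicate 2 was far above the other 2 (log2 fold change 2.70 ± 0.67 (SE), edgeR adjusted p = 0.0468). Col1a1, the chain present 2 times in the type I molecule, read 75.7, 63.1 and 47.7 CPM in C and 341, 719.8 and 125 CPM in H. Again the groups did not overlap (2.67 ± 0.53, edgeR adjusted p = 0.0145). Its partner Col1a2 read 307, 293 and 131 CPM in C and 600.0, 1272 and 300.5 CPM in H. Here H replicate 3 lay just under C replicate 1, so the groups overlapped, and the change was smaller (1.57 ± 0.52, edgeR adjusted p = 0.125). Of type V, which nucleates type I fibrils, Col5a1 rose from between 35.8 and 74.9 CPM in C to between 99.4 and 182 CPM in H (1.23 ± 0.36, edgeR adjusted p = 0.0838). Col5a2 rose from between 31.5 and 47.7 to between 67.1 and 233 CPM (1.65 ± 0.45, edgeR adjusted p = 0.0636). The third chain, Col5a3, stood at 143, 110.0 and 64.8 CPM in C and 125, 141 and 91.9 CPM in H, with a log2 fold change of 0.17 ± 0.46.

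The type IV pair moved as one. Col4a1 read 257, 193 and 112 CPM in C and 747, 1129 and 646 CPM in H, and Col4a2 176, 133 and 79.3 CPM in C and 480.0, 641 and 421 CPM in H. Neither overlapped between groups, and the changes were 2.17 ± 0.44 and 1.99 ± 0.42 (edgeR adjusted p = 0.0166 and 0.0198). The rarer type IV chains, which form the networks of kidney and other specialised membranes, did not share this. Col4a3 read 6.59, 10.2 and 1.97 CPM in C and 1.71 to 1.92 CPM in H, and Col4a4, Col4a5 and Col4a6 had log2 fold changes of -1.57 ± 0.76, -0.51 ± 0.57 and -2.26 ± 0.81, none of them called. For each of the rarer chains the 2 highest values in C were those of replicates 1 and 2, the libraries with the most nuclear-retained RNA, and its part in these differences was not tested. Col15a1 (0.77 ± 0.39) and Col18a1 (0.99 ± 0.34), the multiplexins, were higher in every H mouse than in every C mouse but were not called. Col18a1, at 97.0, 119.7 and 81.7 CPM in H and 66.0, 55.7 and 28.8 CPM in C, lay just under the fold change that the call needs.

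The 3 chains of type VI, which assemble into 1 molecule, all rose. Col6a1 read 38.2, 37.7 and 21.2 CPM in C and 182, 371 and 90.9 CPM in H, and Col6a2 43.7, 45.4 and 29.998 CPM in C and 278, 392 and 141 CPM in H. These were the collagens with the largest called changes after 12 weeks (2.73 ± 0.54 and 2.77 ± 0.41, edgeR adjusted p = 0.0151 and 0.00363). Col6a3, from which the adipokine endotrophin is cleaved, read 121, 108 and 65.0 CPM in C and 239, 483 and 201 CPM in H (1.65 ± 0.49, edgeR adjusted p = 0.0870). The alternative type VI chains differed from these: Col6a5 read 88.4, 114 and 35.8 CPM in C and 48.6, 177 and 14.6 CPM in H, which overlap, and Col6a6 had a log2 fold change of -0.40 ± 0.50. Col8a1 rose from between 6.54 and 18.8 CPM to between 37.1 and 82.6 CPM (2.10 ± 0.56, edgeR adjusted p = 0.0630). The FACIT chain Col12a1 rose from between 3.08 and 7.30 CPM to between 9.89 and 23.6 CPM (1.55 ± 0.43, edgeR adjusted p = 0.0673). Of the same kind, Col14a1 read 26.8, 27.7 and 15.2 CPM in C and 34.1, 75.3 and 34.1 CPM in H, a log2 fold change of 1.04 ± 0.36 at a nominal p just over the threshold.

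In all, 15 of the 40 tested collagens were higher in every H than in every C mouse and 3 were lower in every one, where 13.4% and 10.6% of all genes had such groups. The H mice were unequal, and without H replicate 2 the call held for 5 collagens (Col1a1, Col4a1, Col4a2, Col6a1 and Col6a2). With only C and H in the fit it held for 6 of the 12. Leaving out the 4 libraries with the most nuclear-retained RNA leaves 1 mouse in C. The summed levels of fibrillar, basement membrane and other collagens in H were then 5.65, 5.29 and 5.17 times those in C. Low collagens with high levels in C replicates 1 and 2 depended on the third C mouse, since without it 7 collagens (Col4a3, Col4a4, Col4a6, Col7a1, Col8a2, Col23a1 and Col26a1) were called lower in H. Without that mouse, 1816 of all genes were called in either direction, against 766 higher and 626 lower with all mice. Although edgeR's quasi-likelihood test called no collagen lower in H with all mice, 5 were lower at an unadjusted p under 0.05, DESeq2 called 5 and the likelihood ratio test 4. Of all genes, DESeq2 called 2267 in either direction and the likelihood ratio test 2092.

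**Figure D1:**
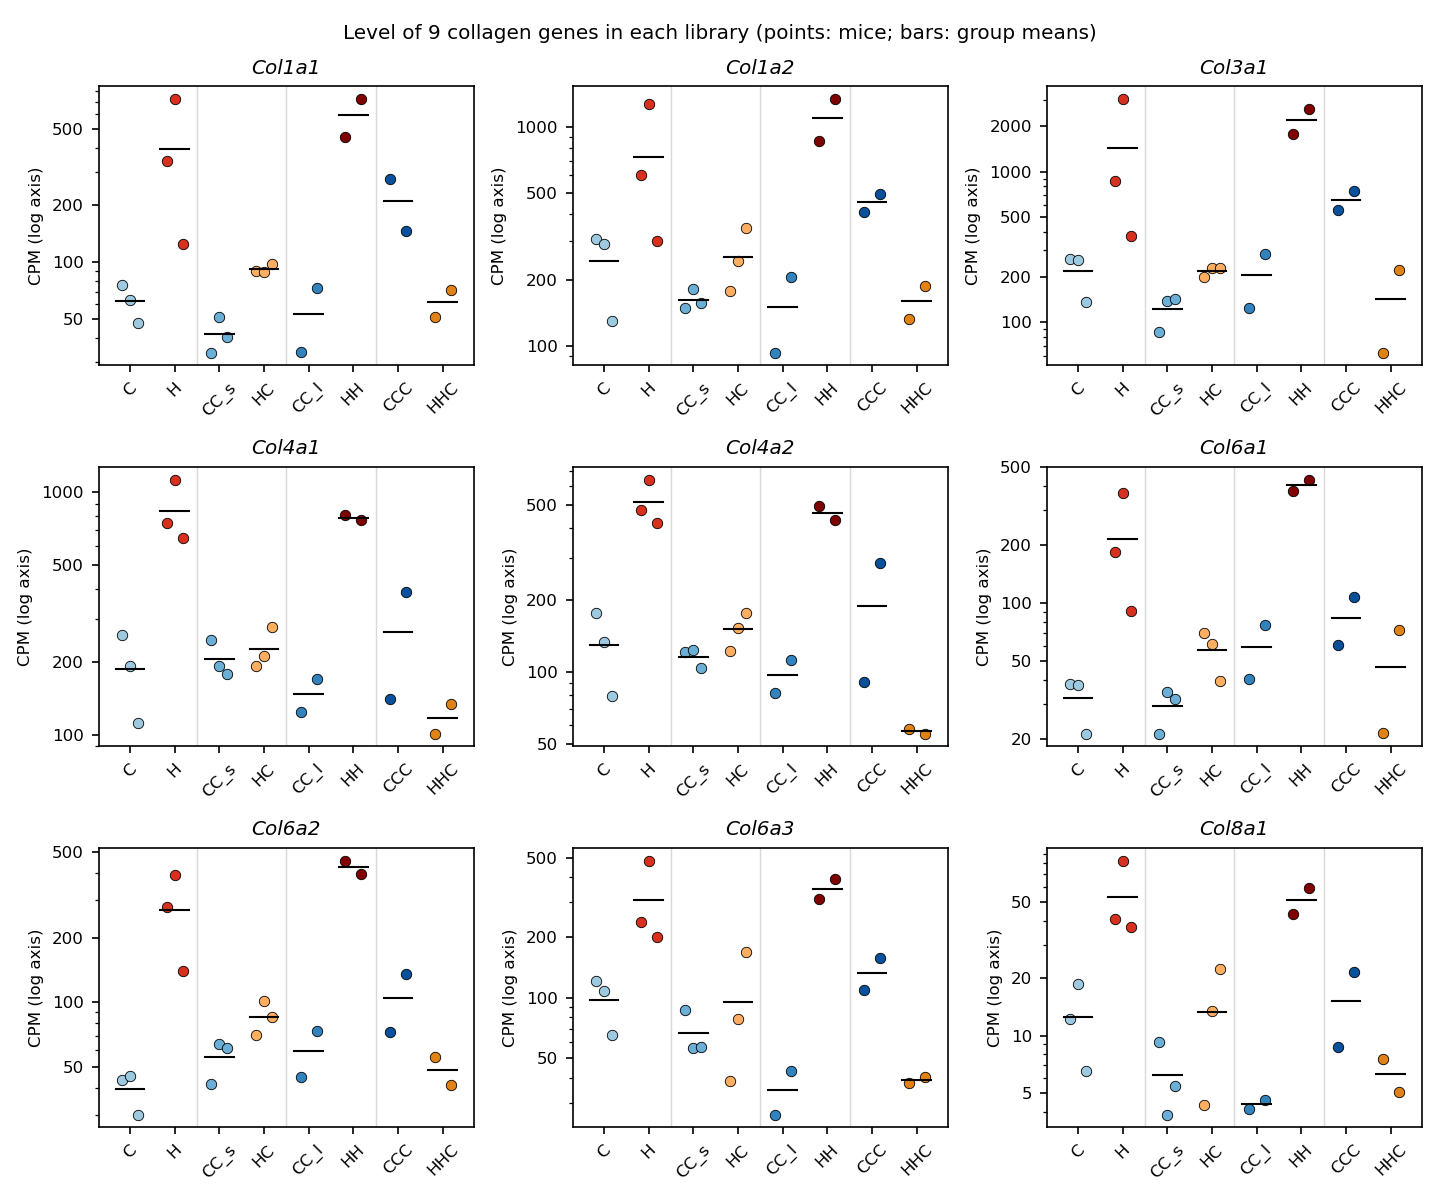
Level of 9 collagen genes in each library, in CPM on a log axis, for the 8 groups in the order C, H, CC_s, HC, CC_l, HH, CCC and HHC. Points are mice and bars are group means. Every HH mouse is above every CC_l mouse for all 9 genes, and every H mouse above every C mouse for all but Col1a2. Of all genes tested, 26.3% were higher in every HH than in every CC_l mouse, and 13.4% in every H than in every C mouse.

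After WL from 12 weeks of HFD, no collagen was called in either direction in HC against CC_s, where 1.57% of all genes were called higher and 0.172% lower. Among collagens, 2 had a nominal p under 0.05 in edgeR, both higher in HC, DESeq2 called none and edgeR's likelihood ratio test called 1 (Col22a1). Of all genes, DESeq2 called 783 in either direction and the likelihood ratio test 972. Of the 40 collagens, 34 had a positive log2 fold change, with a median of 0.64 where the median of all genes was 0.27. Col1a1 read 33.4, 51.5 and 40.3 CPM in CC_s and 89.9, 88.8 and 98.3 CPM in HC. The groups were well apart, but the change did not pass (1.15 ± 0.50, edgeR adjusted p = 0.563). Col3a1 read 85.9, 138 and 142 CPM in CC_s and 200.1, 230.5 and 229.5 CPM in HC, also without overlap (0.85 ± 0.64). Col6a1 stood at 21.2, 34.9 and 32.1 CPM in CC_s and 70.3, 61.4 and 39.8 CPM in HC (0.96 ± 0.51), and Col6a2 at 41.8, 63.8 and 61.5 CPM in CC_s and 70.6, 101.8 and 85.8 CPM in HC (0.63 ± 0.39).

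Those 4 genes and Col12a1, Col4a5 and Col4a6 were higher in every HC than in every CC_s mouse, 7 of 40, where 8.01% of all genes were. The common type IV pair showed little difference. Col4a1 read 246, 193 and 178 CPM in CC_s and 191, 212 and 277 CPM in HC (0.14 ± 0.42), and Col4a2 changed by 0.38 ± 0.40. The rarer chains Col4a3, Col4a4, Col4a5 and Col4a6 had log2 fold changes of 0.58, 0.73, 0.72 and 1.53, none of them called. Col15a1 had a log2 fold change of -0.66 ± 0.39. The one large value, 5.14 ± 1.87 for the FACIT chain Col22a1, came from HC replicate 3, which held 12.0 CPM of it where the other 2 HC mice held 0.206 and 0.321 CPM. That library also held 434 CPM of spermatid genes, whose part in this value was not tested.

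After 25 weeks of HFD, 14 of 40 collagens were called higher in HH than in CC_l and none lower, where 4.92% of all genes were called higher and 1.88% lower. They were the 12 genes called in H together with Col14a1 and Col18a1, and 12 of the 14 had an adjusted p under 0.05. In the other direction 1 collagen was lower at an unadjusted p under 0.05 in edgeR (Col22a1), and neither DESeq2 nor the likelihood ratio test called any. Of the 40, 19 were higher in every HH than in every CC_l mouse and 5 lower, where 26.3% and 28.9% of all genes were. The median log2 fold change was 1.68 over the fibrillar, 1.02 over the basement membrane and 0.20 over the other collagens, and -0.23 over all genes. Col1a1 read 33.9 and 73.3 CPM in the CC_l mice and 459 and 726 CPM in the HH mice (3.47 ± 0.67, edgeR adjusted p = 0.0244). Col3a1 read 125 and 285 CPM in CC_l and 1767 and 2602 CPM in HH (3.41 ± 0.85, edgeR adjusted p = 0.0462). Both HH mice were several-fold above both controls for each gene. Col1a2 rose from 93.4 and 207 CPM to 861 and 1340.3 CPM (2.87 ± 0.66, edgeR adjusted p = 0.0344). Col5a2 rose from 21.3 and 37.6 CPM to 179 and 229.9 CPM (2.80 ± 0.57, edgeR adjusted p = 0.0253). Col5a1 changed less, from 29.2 and 54.1 CPM to 129 and 137 CPM (1.68 ± 0.44, edgeR adjusted p = 0.0596), and Col5a3 was not called (0.50 ± 0.57).

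Of the basement membrane collagens, Col4a1 rose from 124 and 169.8 CPM in CC_l to 804 and 766 CPM in HH (2.42 ± 0.54, edgeR adjusted p = 0.0309) and Col4a2 from 81.8 and 112 CPM to 498 and 434 CPM (2.27 ± 0.52, edgeR adjusted p = 0.0330). Col18a1, whose C-terminal part is released as endostatin, rose from 38.8 and 49.6 CPM to 100.5 and 109 CPM (1.25 ± 0.42, edgeR adjusted p = 0.132). Col4a5, an X-linked chain, read 2.93 and 4.06 CPM in CC_l and 11.4 and 18.3 CPM in HH, with a nominal p that just missed the threshold (2.09 ± 0.72). The type VI chains rose together. Col6a1 read 40.8 and 77.3 CPM in CC_l and 379 and 432 CPM in HH (2.78 ± 0.66), Col6a2 44.95 and 73.8 CPM and 457 and 396 CPM (2.85 ± 0.51), and Col6a3 26.1 and 43.0 CPM and 310.1 and 389.8 CPM (3.34 ± 0.64). Their edgeR adjusted p-values were 0.0396, 0.0187 and 0.0229.

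Col8a1 had the largest called change of any collagen, from 4.15 and 4.58 CPM to 43.5 and 59.7 CPM (3.56 ± 0.74, edgeR adjusted p = 0.0253). Col14a1 rose from 7.20 and 8.25 CPM to 69.1 and 68.9 CPM (3.16 ± 0.48) and had the smallest edgeR adjusted p among collagens, 0.0145. Col12a1 rose from 2.62 and 4.58 CPM to 23.5 and 23.4 CPM (2.71 ± 0.54, edgeR adjusted p = 0.0253). For both FACIT chains each HH mouse was far above both CC_l mice, and the HH mice were nearly equal. Without the 4 libraries with the most nuclear-retained RNA, 17 collagens were called in HH, all 14 among them, with Col22a1 lower. Of all genes, 6.08% were then called higher and 4.76% lower. Without CC_l replicate 1, the library with spermatid genes, 9 of the 14 calls held, with Col1a2, Col3a1, Col5a1, Col6a1 and Col18a1 lost. Col22a1, at 36.7 CPM in that library and 0.655 CPM in the other CC_l mouse, and Col20a1, at 9.85 and 0 CPM, were highest there.

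**Figure D2:**
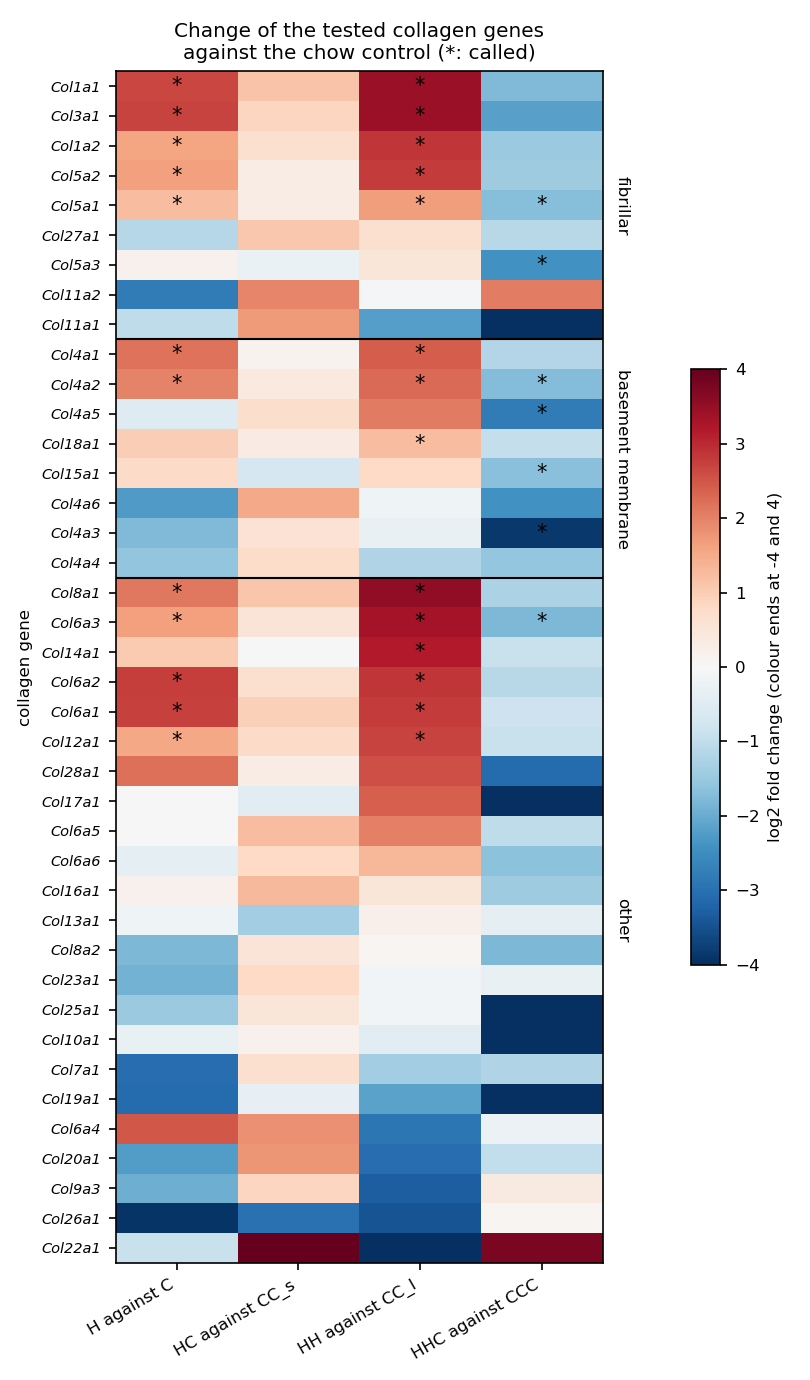
Log2 fold change of the 40 tested collagen genes (rows, by class and by their change in HH) in the 4 comparisons with the chow control (columns), from blue (lower) to red (higher), with colours ending at -4 and 4. Asterisks mark called genes: 12 in H, none in HC, 14 in HH, all higher, and 7 in HHC, all lower.

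After WL from 25 weeks of HFD, the direction was the opposite. In HHC against CCC, 7 collagens were called lower and none higher, where 2.67% of all genes were called lower and 0.447% higher, and no adjusted p was under 0.05. At an unadjusted p under 0.05 in edgeR, 20 were lower and none higher, but the share of all genes at that p was not counted. DESeq2 and the likelihood ratio test called 10 collagens each, all lower. They called 1235 and 1190 of all genes, where the main test called 573 lower and 96 higher. Of the 40 collagens 36 had a negative log2 fold change, with a median of -1.46 (-0.06 over all genes), and in 27 every HHC mouse was below every CCC mouse, as in 20.3% of all genes. The 7 were the basement membrane chains Col4a2, Col4a3, Col4a5 and Col15a1, the type V chains Col5a1 and Col5a3, and Col6a3. Col4a2 read 90.3 and 287 CPM in CCC and 57.9 and 55.0 CPM in HHC (-1.74 ± 0.51, edgeR adjusted p = 0.276). Col15a1 read 58.6 and 176 CPM in CCC and 42.9 and 31.4 CPM in HHC (-1.66 ± 0.48, edgeR adjusted p = 0.276). The 2 CCC mice were unequal for both, and replicate 1 stood much nearer to the HHC mice than replicate 2.

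Col4a3 read 2.45 and 5.00 CPM in CCC and 0.168 and 0.323 CPM in HHC, close to the level of 3 counts (-3.86 ± 0.91, edgeR adjusted p = 0.183). Reads of this gene and of its antisense neighbour C430014B12Rik, which share 563 exon bases, cannot be told apart without strand. Col4a5 read 9.56 and 26.1 CPM in CCC and 1.01 and 4.09 CPM in HHC (-2.79 ± 0.75, edgeR adjusted p = 0.225). Col5a1 fell from 53.1 and 89.6 CPM to 20.03 and 23.9 CPM (-1.70 ± 0.45, edgeR adjusted p = 0.216). Col5a3 fell from 45.05 and 186 CPM to 28.2 and 15.4 CPM (-2.41 ± 0.60, edgeR adjusted p = 0.196), and Col6a3 from 109 and 158 CPM to 37.4 and 40.4 CPM (-1.78 ± 0.60, edgeR adjusted p = 0.304).

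The fibrillar chains that had been highest in obese mice were also below the controls, without being called. Col1a1 read 273 and 146 CPM in CCC and 51.6 and 71.5 CPM in HHC (-1.77 ± 0.62), and Col3a1 554 and 739 CPM in CCC and 62.8 and 222 CPM in HHC (-2.18 ± 0.81). The groups did not overlap for either gene. Col1a2 read 409 and 494 CPM in CCC and 133 and 188 CPM in HHC (-1.49 ± 0.63). Col6a1 overlapped between the groups, with 61.1 and 107 CPM in CCC and 21.5 and 72.6 CPM in HHC (-0.84 ± 0.63). Of the 40 tested, Col10a1, Col11a1, Col17a1, Col19a1 and Col25a1 were listed at 0 counts in both HHC mice, and in CCC they reached at most 0.717 CPM (Col25a1).

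The calls in HHC rested on few mice. With only HHC and CCC in the fit none of the 7 held, without CCC replicate 2 the call held for 1 of them (Col4a3), and without HHC replicate 1 for 3 (Col4a3, Col5a3 and Col15a1). Without HHC replicate 2 it held for 3 (Col4a3, Col4a5 and Col5a1), and without CCC replicate 1 for all 7 with 4 more. Leaving out the 4 libraries with the most nuclear-retained RNA, of which CCC replicate 2 is one, leaves 1 mouse in CCC. The summed levels of fibrillar, basement membrane and other collagens in HHC were then 0.319, 0.731 and 0.626 times those in CCC. Of all genes called in this comparison 14.3% were higher with TMM and 27% with RLE size factors, with which 6 of the 7 collagens held.

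**Figure D3:**
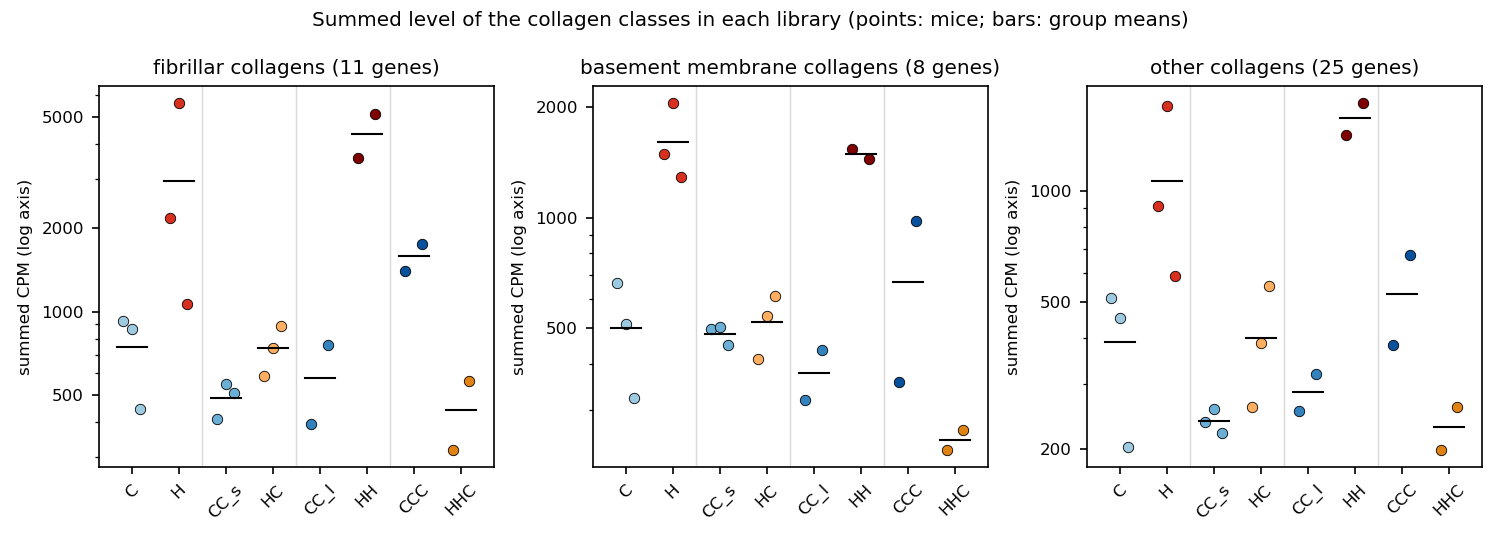
Summed CPM of the fibrillar, basement membrane and other collagens in each library, on log axes, for the 8 groups. Points are mice and bars are group means. Sums in H and HH lie above those of their controls in all 3 classes, and in HHC below those of CCC.

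Summed over a class, fibrillar collagens stood at 449 to 927 CPM in C and 1064 to 5605 CPM in H, at 395 and 762 CPM in CC_l and 3562 and 5139 CPM in HH. The ratio of the geometric means was 3.29 in the short arm and 7.80 in the long arm. Basement membrane collagens summed to 323 to 665 CPM in C and 1295 to 2052 CPM in H (ratio 3.29), and to 319 and 437 CPM in CC_l and 1544 and 1451 CPM in HH (ratio 4.01). The other collagens reached ratios of 2.68 and 5.52. In HC, the ratios to CC_s were 1.498 for fibrillar, 1.07 for basement membrane and 1.61 for other collagens. In HHC, fibrillar collagens summed to 318 and 565 CPM where CCC had 1402 and 1758 CPM, and the ratios were 0.270, 0.418 and 0.449 for the 3 classes. Without the 4 libraries with the most nuclear-retained RNA, the ratios for fibrillar, basement membrane and other collagens were 5.65, 5.29 and 5.17 in H, 1.31, 0.938 and 1.29 in HC and 0.319, 0.731 and 0.626 in HHC.

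Whether the change after HFD differed from that after WL was tested as an interaction. In the long arm, 13 collagens changed differently in HH against CC_l than in HHC against CCC (edgeR adjusted p under 0.05), all with the higher change in HH, where 0.815% of all genes passed. They were Col1a1, Col1a2, Col3a1, Col5a1, Col5a2, Col4a1, Col4a2, Col4a5, Col6a2, Col6a3, Col8a1, Col12a1 and Col14a1. The difference between the log2 fold changes was largest for Col3a1 (5.59 ± 1.17), Col1a1 (5.23 ± 0.91) and Col6a3 (5.12 ± 0.87) and smallest for Col5a1 (3.37 ± 0.63). Col6a1, with 3.62 ± 0.91 and an edgeR adjusted p of 0.0718, missed the threshold. The median difference over the 40 collagens was 3.22, against -0.01 over all genes.

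The number that passed depended on single mice. No collagen passed without any 1 of CC_l replicate 1, CC_l replicate 2, HH replicate 1, CCC replicate 2 or HHC replicate 1, and 7 passed without HH replicate 2, 3 without HHC replicate 2 (Col4a5 and Col5a2 of the 13, and Col28a1) and 18 without CCC replicate 1. With RLE size factors 4 passed (Col1a1, Col6a2, Col6a3 and Col14a1), and without the 4 libraries with the most nuclear-retained RNA 3 did. No sign changed among these fits for the 13 genes.

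**Figure D4:**
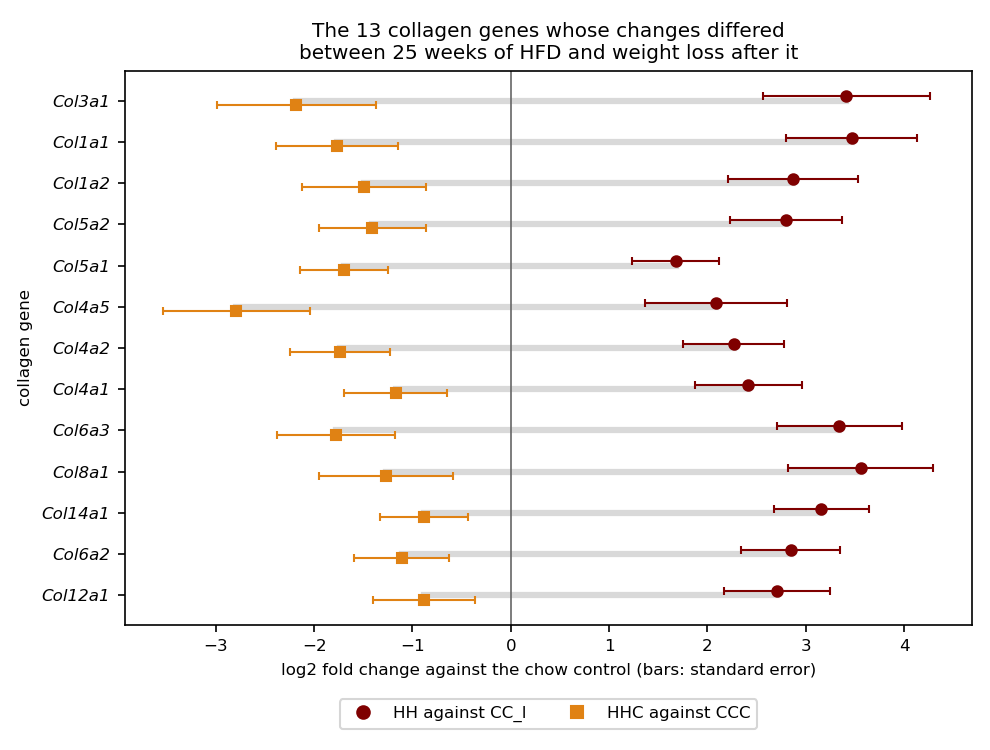
Log2 fold changes of the 13 collagen genes whose change differed between HH against CC_l (circles) and HHC against CCC (squares), with standard errors as bars. All 13 lie above 0 in HH and below 0 in HHC.

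In the short arm, no collagen passed the same test between H against C and HC against CC_s, where 0% of all genes passed. Among collagens, 13 had a nominal p under 0.05 in edgeR, 7 with the higher change in H and 6 with the lower. DESeq2 and the likelihood ratio test passed 2 collagens each, where they passed 443 and 460 of all genes. Between the 2 durations of HFD (HH against CC_l and H against C) 0% of all genes and no collagen passed, 4 collagens had a nominal p under 0.05 in edgeR, all with the higher change in HH, and DESeq2 and the likelihood ratio test passed none. Between the WL groups (HHC against CCC and HC against CC_s) again 0% of all genes and no collagen passed, although 21 of the 40 had a nominal p under 0.05, all lower in the long arm. DESeq2 and the likelihood ratio test passed 3 collagens each, where they passed 314 and 219 of all genes. The longer HFD is therefore not shown to have raised collagens more than the shorter one, nor the WL groups to differ. The sample names of the arms begin with different codes, whose meaning is not given, so duration and whatever these codes mark cannot be told apart.

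Chow groups of different age were compared as a background. In each pair the older group had also moved from low-fat to standard chow, so age and diet cannot be told apart. In CC_s against C, 3 collagens were called lower (Col6a6, Col23a1 and Col4a6) and none higher, where 1.85% and 0.592% of all genes were. In CCC against CC_l, Col1a1, Col6a3, Col14a1 and Col4a5 were called higher and Col22a1 lower, where 0.755% and 1.91% of all genes were, and no collagen had an adjusted p under 0.05 in either comparison. At an unadjusted p under 0.05 in edgeR, 11 were lower and none higher in CC_s against C, and 9 were higher and 2 lower in CCC against CC_l. DESeq2 called 10 and 6 collagens in these comparisons and the likelihood ratio test 6 and 6. Of all genes, DESeq2 called 1480 and 1063 and the likelihood ratio test 1140 and 1125. Col14a1 read 7.20 and 8.25 CPM in CC_l and 27.4 and 27.1 CPM in CCC. So the control of HHC had more of several chains than the control of HH, and the HHC mice, at 16.6 and 12.9 CPM of Col14a1, lay below CCC and above CC_l. Likewise Col1a1 in HHC (51.6 and 71.5 CPM) lay within the range of CC_l (33.9 and 73.3 CPM). Without CC_l replicate 1 none of these 5 calls held, and 2 of them held without CCC replicate 2 (Col1a1 and Col14a1) and 3 without CCC replicate 1 (Col4a5, Col6a3 and Col14a1). None of the 3 calls in CC_s against C held without C replicate 1, without CC_s replicate 1, without CC_s replicate 3 or without the 4 libraries with the most nuclear-retained RNA. Without C replicate 3 there were 11, where 2184 of all genes were called, against 127 higher and 398 lower with all mice. Without CC_s replicate 2 only Col4a6 held.

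Within a library, the ratio of counts between 2 chains does not depend on scaling, and 7 such ratios were compared in 4 comparisons by exact two-sided permutation tests, which cannot give a p below 0.1 for 3 against 3 mice or 0.333 for 2 against 2. Col4a1 to Col4a2 was the most even ratio, between 1.35 and 2.44 over the 20 libraries with a median of 1.56. It was slightly higher in every H than in every C mouse (1.12-fold, exact permutation p = 0.1). The same held for HH against CC_l (1.11-fold) and HHC against CCC (1.42-fold, exact permutation p = 0.333 for each), while HC and CC_s overlapped. Col1a1 to Col1a2 was 0.246, 0.216 and 0.366 in C and 0.569, 0.566 and 0.416 in H. Every H mouse was above every C mouse, by 1.90-fold in the geometric mean (exact permutation p = 0.1, the smallest possible). Against C replicate 3 alone, without the 2 C libraries rich in nuclear-retained RNA, it was 1.40-fold. The ratio was 0.224 to 0.282 in CC_s and 0.286 to 0.502 in HC, again without overlap (1.48-fold, exact permutation p = 0.1), and 0.363 and 0.354 in CC_l and 0.534 and 0.542 in HH (0.59 on the log2 scale, exact permutation p = 0.333). In CCC it was 0.666 and 0.296, a range that took in both HHC mice (0.388 and 0.379).

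Col3a1 to Col1a2 was 0.855 to 1.04 in C and 1.25 to 2.40 in H (1.76-fold, exact permutation p = 0.1), and 1.34 and 1.38 in CC_l and 2.05 and 1.94 in HH. This ratio was lower in every HHC than in every CCC mouse (0.525-fold, exact permutation p = 0.333), while HC and CC_s overlapped. The third chain of type VI did not keep pace with the second in the short arm. Col6a3 to Col6a2 was 2.17 to 2.77 in C and 0.859 to 1.43 in H (0.473-fold, exact permutation p = 0.1). In the long arm it was 0.580 and 0.582 in CC_l and 0.678 and 0.984 in HH, in the other direction, and 1.49 and 1.16 in CCC and 0.672 and 0.979 in HHC, again lower (0.616-fold, exact permutation p = 0.333). Without the 4 libraries with the most nuclear-retained RNA, this ratio was 0.530-fold in H and 0.543-fold in HHC. Col5a1 to Col5a2 was 1.37 and 1.44 in CC_l and 0.721 and 0.597 in HH (0.467-fold, exact permutation p = 0.333), whereas in C and H it overlapped.

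**Figure D5:**
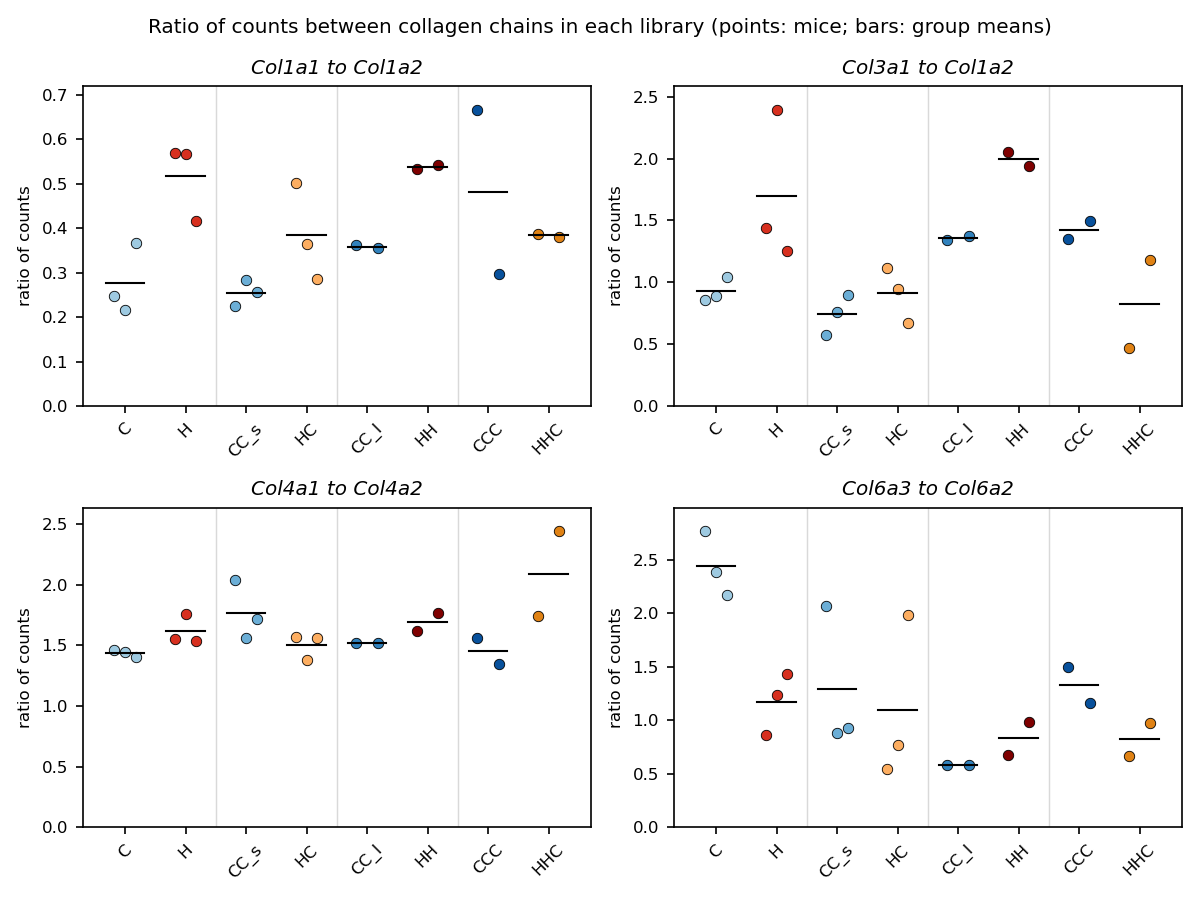
Ratio of counts between 4 pairs of collagen chains in each library, on axes from 0, for the 8 groups. Points are mice and bars are group means. Col1a1 to Col1a2 is higher in every H, HC and HH mouse than in its controls, and Col6a3 to Col6a2 is lower in every H than in every C mouse.

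Genes that act on collagens were read from 5 lists. The share of all genes called higher was 3.57% in H, 1.57% in HC and 4.92% in HH, and that of all genes called lower in HHC was 2.67%, so a single called gene of a list is close to this background. Of 19 genes for modification and folding that were tested (P4ha3 of the list was not), 9 were called higher in H, none in HC and 10 in HH, and 1 was called lower in HHC. They include Ppib, the proline isomerase of the endoplasmic reticulum (3.51 ± 0.63 in H), Sparc, a collagen-binding glycoprotein (2.65 ± 0.48 in H and 2.36 ± 0.58 in HH), Colgalt1, which adds galactose to hydroxylysine (2.67 ± 0.53 in HH), and P3h3, a prolyl 3-hydroxylase (2.31 ± 0.63 in HH). P3h1 was the one called lower in HHC (-1.33 ± 0.43). Without the 4 libraries with the most nuclear-retained RNA, 1 was called higher in HC and 11 in HH. The shares of all genes called higher were then 0.815% in HC and 6.08% in HH. The median log2 fold change of the list was then 1.66 in H and -0.38 in HHC, each against 1 control mouse. Over this list, with all libraries, the median log2 fold change was 1.17 in H and 1.70 in HH.

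Of 13 tested genes for processing and crosslinking (Tll2 was not), 4 were called higher in H, 1 in HC and 6 in HH, and 2 lower in HHC. Pcolce2, an enhancer of procollagen C-proteinase, rose by 2.58 ± 0.47 in H, 1.36 ± 0.46 in HC and 4.19 ± 0.62 in HH on the log2 scale, with edgeR adjusted p = 0.00996, 0.536 and 0.0145. Loxl3, a lysyl oxidase, rose in HH (3.16 ± 1.01), and Bmp1 (-2.58 ± 0.82) and Tll1, both procollagen C-proteinases, were called lower in HHC. Tll1 was listed at 0 in both HHC mice and stood at 0.597 and 1.81 CPM in CCC. With the 4 libraries left out, 1 of 14 was called higher in HC and 8 in HH (0.815% and 6.08% of all genes). The list medians were then 2.13 in H and -0.24 in HHC. Of 11 receptors and uptake genes, 2 were called higher in H, 1 in HC and 6 in HH. Mrc2, an endocytic collagen receptor, was called in all 3 (2.06 ± 0.58, 1.90 ± 0.58 and 3.16 ± 0.74), and Lair1, an inhibitory collagen receptor of leukocytes, in HH (3.39 ± 0.92). The receptor counts without the 4 libraries were none in HC and 6 in HH, and the list median in H was 2.05.

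Of 11 fibril-binding proteins, 4 were called higher in H, none in HC and 9 in HH. Lum and Postn, which bind fibrils, rose by 2.26 ± 0.61 and 3.46 ± 0.59 in H and by 5.42 ± 0.87 and 4.95 ± 0.78 in HH. Thbs2 (4.05 ± 0.87) and Fn1 (3.59 ± 0.77) rose in HH. The partners of type IV in the basement membrane (laminin chains, nidogens, perlecan and agrin, 10 genes) were called higher for 2 genes in H, none in HC and 4 in HH, and lower for 6 in HHC, among them the laminin chains Lama5 (-3.25 ± 0.86) and Lama2 (-2.07 ± 0.59) and the proteoglycan Agrn (-2.44 ± 0.81). Over these 10 genes, the median log2 fold change was 0.32 in H, 1.56 in HH and -1.78 in HHC. These values depended on the libraries rich in nuclear-retained RNA. Without the 4 of them, the medians were 1.58 in H, 1.56 in HH and -0.47 in HHC. In HH, 5 of the 10 were then called higher, where 6.08% of all genes were. Of the fibril-binding proteins, none was then called higher in HC and 9 in HH, with medians of 2.66 in H and -0.02 in HHC.

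Markers of other cell types were read in the same libraries, against the same shares of all genes (3.57%, 1.57% and 4.92% called higher in H, HC and HH, and 2.67% lower in HHC). Whether they changed along with the collagens was not tested. Of 10 progenitor and fibroblast markers, 1 was called higher in H (Cd34), 1 in HC (Pdgfra) and 5 in HH, and none was called in HHC. The median log2 fold change of this list was -0.04 in H and 1.82 in HH. Their summed level was 214 to 489 CPM in C, 454 to 808 CPM in H, 132 and 151 CPM in CC_l, 772 and 1004 CPM in HH, 249.9 and 500.4 CPM in CCC and 246 and 492 CPM in HHC. Of 8 endothelial markers, 5 were called higher in H and 7 in HH and 2 lower in HHC, and their sum was 326 to 867 CPM in C, 2018 to 2369 CPM in H, 214 and 249.6 CPM in CC_l, 1035 and 2205 CPM in HH, 333 and 747 CPM in CCC and 105 and 149.9 CPM in HHC. Of 8 mural and smooth muscle markers none was called in H, HC or HHC and 2 in HH, with sums of 234 to 1733 CPM in C, 1307 to 1357 CPM in H, 196 and 206 CPM in CC_l and 715 and 1196 CPM in HH.

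Of 8 macrophage markers, 6 were called higher in H, 6 in HC and 7 in HH, and 1 lower in HHC, with sums of 184 to 325 CPM in C, 489 to 2850 CPM in H, 171 to 231 CPM in CC_s, 455 to 1108 CPM in HC, 191 and 312 CPM in CC_l and 2785 and 3710 CPM in HH. No collagen was called in HC, where 34 of the 40 had a positive log2 fold change. Whether macrophage markers and collagens differed in HC was not tested. Among 8 adipocyte markers, Lep was called in H (2.02 ± 0.66) and no other in any of the 4 comparisons. Their sum was 18214 to 121319 CPM in C and 30627 to 55562 CPM in H, and 47815 and 48687 CPM in CC_l and 23945 and 30782 CPM in HH, where it was lower in both mice (median log2 fold change of the list -1.11). Mesothelial markers were called lower for 2 of 7 genes in H and for 2 in HHC, with sums of 71.5 to 309 CPM in C and 53.6 to 61.7 CPM in H. No marker of these 6 lists was at 0 in any library. Of 4 Schwann cell markers none was called, of 5 markers of epididymal epithelium 1 was called higher in H, and of 5 spermatid markers 3 were called higher in HC. Of the 4 nuclear-retained RNAs, Neat1 was called lower in H and Kcnq1ot1 in HHC. With the same 4 libraries left out, 6.08% of all genes were called higher in HH. The markers called higher there were 6 of 10 for progenitors and fibroblasts, 8 of 8 for endothelium, 6 of 8 for mural cells and 7 of 8 for macrophages. The medians of these 4 lists in H, against 1 C mouse, were 0.86, 2.58, 2.64 and 2.98. In HC, 4 macrophage markers and 1 mural and 1 mesothelial marker were then called higher (0.815% of all genes). In HH, 2 adipocyte markers were called lower (4.76% of all genes). The adipocyte median was then -1.24 in H and the endothelial median -1.30 in HHC. The part of cells other than adipocytes in the collagen changes was not tested.

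The counting of collagens themselves was checked on the annotation. Of the 50-base words in their transcripts, at most 4.87% (Col9a3) also occur in transcripts of another gene, and the share was 0.927% for Col3a1, 1.41% for Col5a1, 3.42% for Col6a5 and 3.70% for Col6a6, which share words with each other. Col4a1 and Col4a2 overlap by 22 exon bases on opposite strands.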

How the data were processed

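TRAP–seq libraries of epiAT from 20 mice in 8 groups were analysed. The deposited table holds raw counts per Ensembl gene. Per the submitters' processing notes the authors used FastQC 0.11.9, Trim Galore 0.6.6, HISAT2 2.2.1 and Subread 2.0.1 with mm10, and neither the annotation nor how strand and read pairs were counted is given in the sources used here. Of nonzero counts 74.4 to 89.2% per library were even, so paired reads may have been counted singly. Symbols came from GENCODE vM21 for 45229 of 46078 genes (98.2%).

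Counts were filtered with filterByExpr, scaled by TMM and fitted in edgeR 4.0.16 (R 4.3.3) with the quasi-likelihood test, with 1 coefficient for each of the 8 groups and all libraries sharing the spread (common dispersion 0.462, prior df 5.29). A gene was called at p under 0.01 before adjustment with a log2 fold change of 1 or more in size. Differences between changes used an adjusted p under 0.05, with Benjamini-Hochberg adjustment over 21464 genes. The share of all genes at an unadjusted p under 0.05 was not counted, so collagen counts at that threshold have no background. Levels are CPM of the TMM-scaled library. Collagens named were those called, the 10 highest per length, chains of the same trimers and those with a difference between changes, and in each other list at most the 4 called genes with the largest change. Col20a1, Col22a1 and low collagens named beside a left-out mouse were chosen after their values were seen. DESeq2 1.42.0, edgeR's likelihood ratio test, RLE size factors, no filter, halved counts, a replicate block and leaving out mice were tried. The edgeR quasi-likelihood test was tried on simulated data with changes planted in H only. The alternatives and the difference between HH and HHC were not tried on simulated data. The members and lists were chosen with earlier results of these data known. Labels name replicates but no litter or cage, so p-values measure the spread between these samples.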

Additional observations from a re-analysis of the deposited data

Results flagged for a closer look

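For 13 collagens, the change after 25 weeks of HFD and the change after the following WL, each against its own chow control, differed in the test of the difference itself (edgeR quasi-likelihood test, adjusted over all genes). The difference between the log2 fold changes (HH against CC_l minus HHC against CCC) among fibrillar chains was 5.59 for Col3a1, 5.23 for Col1a1, 4.36 for Col1a2, 4.20 for Col5a2 and 3.37 for Col5a1. Among type IV chains it was 4.88 for Col4a5, 4.01 for Col4a2 and 3.59 for Col4a1. Among type VI chains it was 5.12 for Col6a3 and 3.96 for Col6a2, and it was 4.83 for Col8a1, 4.04 for Col14a1 and 3.59 for Col12a1. The edgeR adjusted p-values ran from 0.0179 (Col14a1) to 0.0376 (Col4a5). With 2 mice in each of the 4 groups, each value rests on 8 libraries. No collagen passed on leaving out CC_l replicate 1, CC_l replicate 2, HH replicate 1, CCC replicate 2 or HHC replicate 1, none passed with a replicate block, and 4 passed with RLE size factors.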

How the results depend on the processing

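None of the collagens called in H, HH or HHC, or of the 13 that passed for the difference between HH and HHC, changed sign under the alternatives run. The signs of other named genes were not followed. At an adjusted p under 0.05, collagens called were 6 higher in H, 0 lower in HHC, 0 lower in CC_s against C, and 0 higher and 0 lower in CCC against CC_l. When the fit held no other groups than those compared, 7 were higher in H, 1 in HC and 1 in CCC against CC_l, and 0 lower in HHC. DESeq2 and the likelihood ratio test called 5 and 4 lower in H and 10 and 6 lower in CC_s against C. The likelihood ratio test called 1 higher in HC and 2 lower in CCC against CC_l. Without the filter, 5 were lower in H, 5 higher in HC, 1 lower in HH, 12 lower in HHC, 10 lower in CC_s against C, and 8 higher and 2 lower in CCC against CC_l. Of all genes, 2492 were then called in H, 1764 in HC, 2879 in HH and 1266 in HHC. The totals were 2006 in CC_s against C and 1924 in CCC against CC_l. In HC the main fit called 337 genes higher and 37 lower. With halved counts 1 was lower in H. Without the 4 libraries with the most nuclear-retained RNA (an alternative chosen after seeing the data), 1 was lower in HH, 3 lower in HHC and 0 lower in CC_s against C.

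For the difference between HH and HHC, 4 collagens passed with RLE size factors, 20 with DESeq2, 3 without those 4 libraries and, with the lower change in HH, 1 without the filter. For H and HC, 1 and 1 passed with DESeq2, 1 and 1 under the likelihood ratio test, and 1 and 4 without the filter (higher and lower in H). For the WL groups, 3 were lower in the long arm with DESeq2, 3 under the likelihood ratio test and 8 without the filter. Of all genes, the fit without the filter passed 1403 for H and HC, 1266 for HH and HHC and 781 for the WL groups. DESeq2 passed 1176 of all genes for HH and HHC. The cause of these differences was not tested. RLE size factors shifted the median log2 fold change of all genes by -0.101 in H, 0.13 in HHC and -0.144 in CC_s against C.

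Leaving out 1 mouse at a time gave 5 to 14 collagens higher and 0 to 7 lower in H, 0 to 2 higher in HC, 9 to 13 higher in HH, 2 to 11 lower in HHC, 0 to 11 lower in CC_s against C, 0 to 7 higher and 0 to 1 lower in CCC against CC_l, and 0 to 18 for the difference between HH and HHC. Deviations of same-numbered mice from their group means had correlations of -0.167, 0.187 and 0.192 in H and C and -0.277, 0.0593 and -0.238 in HC and CC_s. They were -0.193 in HH and CC_l and -0.26 in HHC and CCC. With 2 mice in a group both replicates give the same value by construction. So few mice cannot show whether a replicate number marks shared handling. With the replicate block 0 collagens passed for the difference between HH and HHC and 0 were lower in CC_s against C. With crossed pairing in the long arm (chosen after seeing the data), these were 0 and 0, and 2 were higher in CCC against CC_l. With 2 or 3 mice in a group and low counts for 4 untested collagens, differences of small size were not detectable at this depth.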
